A study of Mus musculus with 69 samples.

Results

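The mTOR pathway genes described here were 10 genes chosen by name, Mtor, Rptor, Rictor, Rheb, Tsc1, Tsc2, Deptor, Eif4ebp1, Rps6kb1 and Akt1, out of 52404 genes listed in all 4 tables of the series. Each had a single row in every table, and all 10 passed the filter on low values (a mean of at least 1 TPM over the animals of a table) in every table. The tables come from RNA-seq of microdissected kidney tubules of wild-type (WT) male C57BL/6 mice, 7 weeks old when assigned to surgery. Tubules were either PT-S1, the first part of the proximal tubule, or CCD, the collecting duct of the cortex. They were taken 24 h or 72 h after excision of 1 kidney (unilateral nephrectomy, UNx) or after sham surgery, and no group carried an engineered allele or received a drug according to the labels. PT-S1 at 24 h comprised 3 sham and 4 UNx animals and PT-S1 at 72 h 5 and 5, while CCD at 24 h comprised 4 and 3 and CCD at 72 h 4 and 4. Each animal gave 1 to 3 libraries in a table, which were averaged, so that the animal was the replicate. The 69 libraries gave 32 such averages, with animals counted separately in each table. Animal numbers recur between PT-S1 and CCD at the same time and may mean the same mice, which the labels do not say.

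mTOR is a protein kinase that couples nutrients and growth factors to protein synthesis and cell growth. It works in a pair of complexes, of which mTORC1 is built around raptor (Rptor) and mTORC2 around rictor (Rictor). Growth factors act through the kinase Akt, which inhibits the TSC1-TSC2 complex, and that complex in turn holds back the GTPase Rheb, the direct activator of mTORC1. Active mTORC1 phosphorylates S6 kinase (Rps6kb1) and the translation repressor 4E-BP1 (Eif4ebp1), and Deptor binds mTOR and inhibits it. In the kidney left after nephrectomy, mTORC1 activity is known for driving growth of tubular cells. Phosphorylation carries most of this signalling, and transcript levels do not show it.

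Values are TPM, a transcript level scaled for gene length and to the same total in each library, so that the depth of a library cannot be read from it. A level of an animal is the mean of its libraries on the log2(TPM + 1) scale, given back as TPM, and a change is the UNx minus sham difference on that scale. Libraries held 9247 to 14875 genes at 1 TPM or more. Of the 69 libraries, 5 had a median correlation under 0.92 with the other libraries of their table: 2 in PT-S1 24 h sham, 2 in PT-S1 72 h UNx and 1 in CCD 72 h sham. The 2 of PT-S1 72 h UNx, from animals 1 and 2, held the fewest genes of all libraries, 9247 and 9632. The plot of changes shows each member's change with and without these libraries. The labelled segments showed their defining markers. All 7 markers of early proximal tubule averaged at least 1 TPM in PT-S1, and their summed level there was 6615 to 17459 TPM per animal against 3.01 to 53.2 in CCD. All 7 markers of principal cells and all 6 of intercalated cells did so in CCD, where the principal cell sum was 22133 to 66253 TPM against 69.8 to 120.1 in PT-S1. Markers of other segments were also present. In PT-S1 those of proximal tubule S3 summed to 466 to 2341 TPM per animal and those of thick ascending limb to 166 to 384 TPM. Of the 5 thick ascending limb markers, only 2 to 4 averaged at least 1 TPM in a group of PT-S1. In CCD those of distal convoluted tubule summed to 300 to 599 TPM and those of thick ascending limb to 75.2 to 986 TPM. Of the 6 distal convoluted tubule markers, 4 averaged at least 1 TPM in each group of CCD. Where a level differs in bulk tubules, fewer cells of a type and less RNA per cell cannot be told apart.

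None of the 10 members passed the test of UNx against sham, an adjusted p under 0.05 in limma over all genes of a table, in any of the 4 tables. The same call was made for 0% of 11874 genes in PT-S1 24 h, 0% of 11886 in PT-S1 72 h, 0.987% of 13775 in CCD 24 h and 0.595% of 13770 in CCD 72 h. At an unadjusted limma p under 0.05, 1 member was lower after UNx in PT-S1 24 h (15.2% of all genes), 6 in PT-S1 72 h (19.1%), 2 in CCD 24 h (9.97%) and 0 in CCD 72 h (2.82%), and none was higher in any table. Groups whose animals did not overlap, with UNx below sham, were seen for 2 members in PT-S1 24 h (12.1% of genes), 3 in PT-S1 72 h (5.33%), 2 in CCD 24 h (9.51%) and 0 in CCD 72 h (1.54%). Without the libraries of low correlation these were 3 (Rictor, Tsc2 and Akt1; 21.5%), 1 (1.62%), 2 and 0 (4.86%). Without them, an unadjusted limma p under 0.05 in either direction was seen for 2 members in PT-S1 72 h (17.7% of genes). After quantile scaling it was seen there for 1 (13.2%), and after median-ratio scaling also for 1 (12.7%). In PT-S1 24 h the same settings gave 1 (24.7%), 2 (12.7%) and 3 members (14.9%). In PT-S1 the background itself lay low. The median change over all genes was -0.19 at 24 h and -0.29 at 72 h, and by sign alone 70.9% and 83% of genes were lower after UNx, as were 7 and 10 members. Without the libraries of low correlation 7 members (54% of genes) were lower in PT-S1 72 h and 9 (77.1%) in PT-S1 24 h. In CCD the median of all genes was -0.038 at 24 h and 0.010 at 72 h, with 58.2% and 47.8% of genes and 8 and 5 members lower. The median change of the members was -0.33 in PT-S1 24 h, -0.45 in PT-S1 72 h, -0.13 in CCD 24 h and 0.011 in CCD 72 h. In CCD 72 h, leaving out the low-correlation library made 8 members lower (63.2% of genes), with a median of -0.12. Under median-ratio scaling, which centres the genes, the members' medians in PT-S1 moved to -0.11 at 24 h and -0.093 at 72 h.

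**Figure D1:**
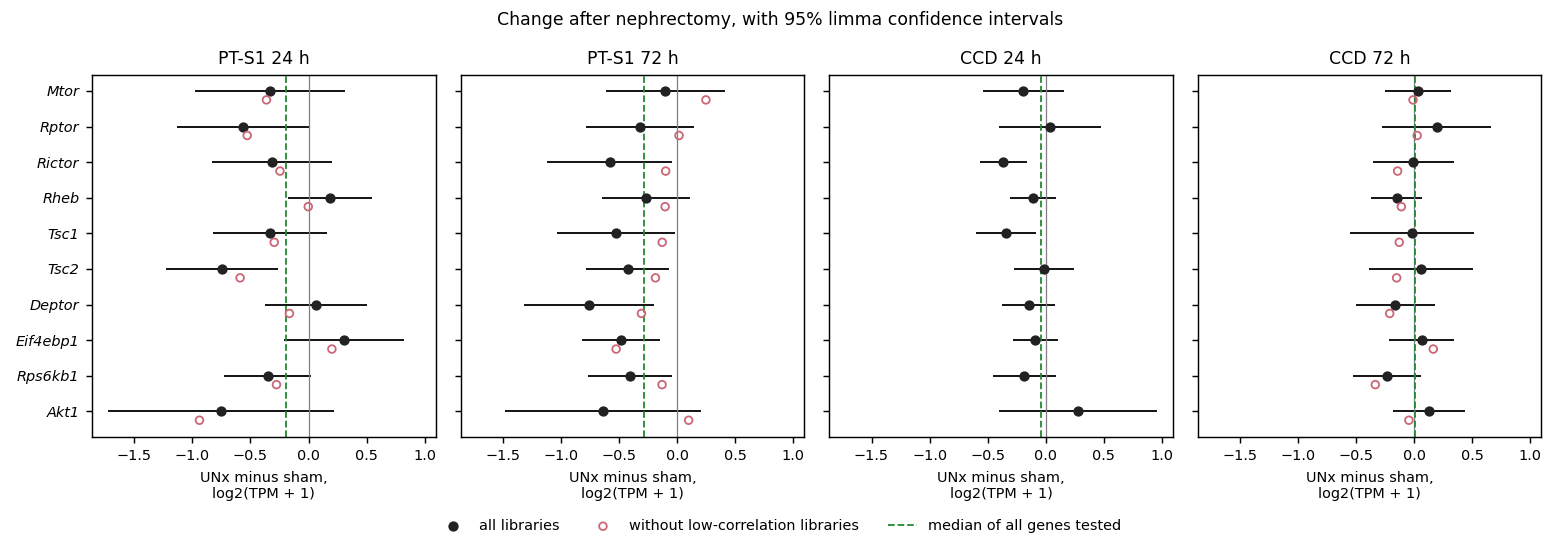
UNx minus sham change of each member on the log2(TPM + 1) scale in the 4 tables, with 95% confidence intervals from limma. Filled points use all libraries, open points leave out the libraries of low correlation (none in CCD 24 h), and the dashed line is the median of all genes tested. In PT-S1 72 h the 10 filled points lie below 0, while 3 open points lie above it.

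Between segments, the sham animals of CCD had more of most members than those of PT-S1. These levels compare tables that were treated as normalized separately and are a description. At 24 h all CCD animals were above all PT-S1 animals for 7 of the 10 members, which is so for 62.6% of all genes, and at 72 h for 6 (55.9%). With the libraries of low correlation left out, a comparison added after the data were seen, this held for 8 members at 24 h (64.8% of genes), where Tsc1 was added, and for 8 at 72 h (60.2%), where Rptor and Tsc2 were added. On the log2 scale the difference was largest for Deptor, Eif4ebp1, Rheb and Rictor at 24 h, at 2.29, 1.95, 1.70 and 1.54. The median over all genes was 0.80, and the median over the 10 members was 0.70. Rptor, Tsc1, Tsc2, Rps6kb1 and Akt1 lay between 0.39 and 0.71, below the median of all genes. At 72 h the median was 1.05 over the members and 0.77 over all genes. Mtor alone went the other way, with all sham PT-S1 animals above all sham CCD animals at 24 h, as for 14.6% of genes.

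**Figure D2:**
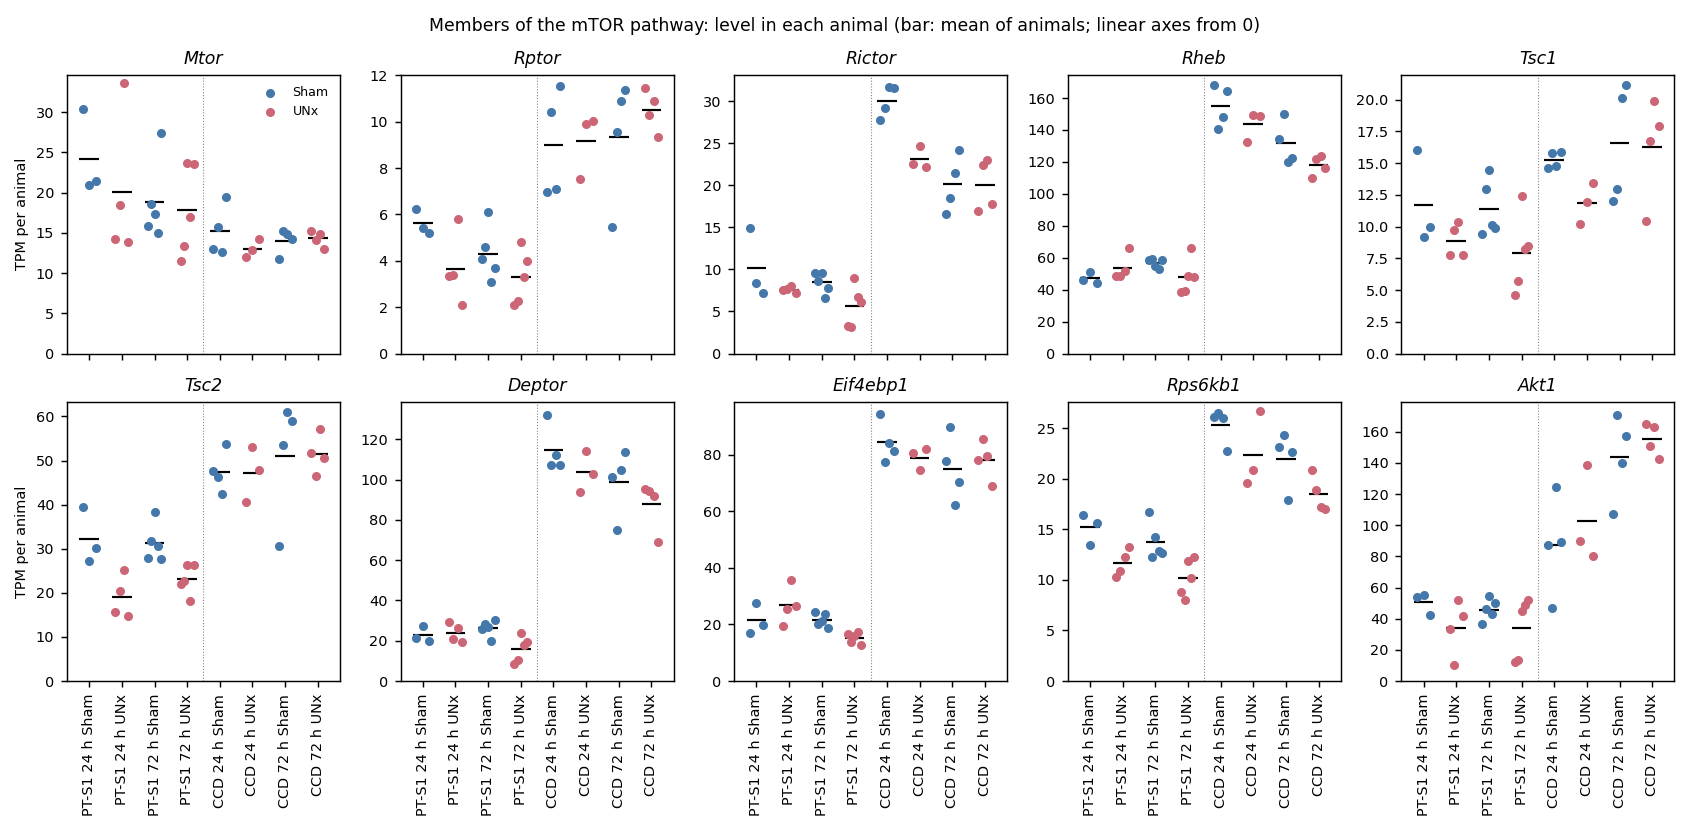
TPM of each member in every animal of the 8 groups, PT-S1 left and CCD right of the dotted line, with the mean of the animals as a bar and axes that start at 0. Deptor, Eif4ebp1, Rheb and Rictor stand higher in CCD than in PT-S1, and Mtor does not.

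Mtor (ENSMUSG00000028991) encodes the kinase itself. Sham PT-S1 animals at 24 h had 30.3, 20.9 and 21.4 TPM, and sham CCD animals 13.01, 15.8, 12.6 and 19.4 TPM. At 72 h the sham ranges overlapped, at 15.0 to 27.5 TPM in PT-S1 and 11.8 to 15.2 TPM in CCD. Of the 8 groups, PT-S1 24 h sham had the highest mean, 24.2 ± 5.29 TPM (SD, n = 3), and CCD 24 h UNx the lowest, 13.02 ± 1.14 TPM (SD, n = 3). No neighbours in that order were separated by their animals. The means spanned 0.83 on the log2 scale over the 8 groups, the smallest span of the 10 members. The UNx change was lowest in PT-S1 24 h, -0.33 (SE 0.29, adjusted p = 0.518), and highest in CCD 72 h, 0.030 (SE 0.13, adjusted p = 0.982). In PT-S1 72 h it was -0.10, and 0.25 without the libraries of low correlation.

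Rptor (ENSMUSG00000025583), the scaffold that recruits substrates to mTORC1, was the lowest of the 10 in every group by mean TPM, from 3.31 ± 1.15 TPM (SD, n = 5) in PT-S1 72 h UNx to 10.5 ± 0.904 TPM (SD, n = 4) in CCD 72 h UNx. The sham animals of PT-S1 24 h had 6.23, 5.41 and 5.21 TPM and the UNx animals 3.34, 3.37, 5.81 and 2.09 TPM. UNx animal 3 lay among the sham animals and the other 3 below them, with a change of -0.56 (SE 0.26, adjusted p = 0.285). Exons of an antisense gene, Rptoros, overlap those of Rptor in GENCODE M21, and the SMART-Seq V4 kit named in the labels does not mark strand.

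Rictor (ENSMUSG00000050310), the subunit that defines mTORC2, gave the member change with the smallest p in CCD 24 h. The sham animals had 27.8, 29.1, 31.7 and 31.6 TPM and the UNx animals 22.5, 24.7 and 22.2 TPM. All 3 UNx animals were below all 4 sham animals, as for 9.51% of genes. Taken library by library, the 7 UNx libraries (19.99 to 25.6 TPM) also lay below the 8 sham libraries (27.3 to 34.5 TPM), which holds for 1.21% of genes. The change was -0.36 (SE 0.090, limma adjusted p = 0.0976), or a UNx to sham ratio of 0.777. It missed the threshold with the animal as replicate, where 0.987% of all genes passed. It passed when the 15 libraries, which are not independent animals, were the replicates (limma adjusted p = 0.00350), as did 7.46% of all genes. With the animal as a random effect over them it also passed (limma adjusted p = 0.0135), as did 3.52% of all genes. The change lay between -0.41 and -0.31 in all alternatives tried, and relative to the median of all genes it was -0.33.

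At 72 h the CCD animals no longer separated for Rictor. Sham animals had 16.6, 18.5, 21.4 and 24.2 TPM and UNx animals 17.0, 22.4, 23.0 and 17.8 TPM, with a change of -0.008 (SE 0.16, adjusted p = 0.997). Sham animal 1 averaged a library of low correlation at 11.1 TPM with another at 24.6 TPM. Without the former the change was -0.14 (adjusted p = 0.674), and the groups still overlapped. The UNx effect at 72 h minus that at 24 h was 0.36 (95% interval -0.041 to 0.75, adjusted p = 0.968), and 0.22 (adjusted p = 0.751) without the library of low correlation, so the effects were not shown to differ between the times. In that comparison 0 members had an unadjusted p under 0.05 (4.96% of genes). All 4 sham animals of the 24 h table were above all UNx animals of that table and all animals of the 72 h table. In PT-S1 the highest animal had 14.9 TPM, below every CCD animal. The share of genes with that order over all animals was not counted. Among sham animals alone it was 62.6% at 24 h and 55.9% at 72 h. The ratio of Rictor to Rptor within libraries was 2.73 to 4.46 per sham animal and 2.22 to 3.02 per UNx animal in CCD 24 h, ranges that overlap. Principal cell markers summed to 25001 to 50418 TPM in sham and 48003 to 66253 TPM in UNx animals of CCD 24 h, overlapping ranges that were higher in UNx at the median. Their part in the values of Rictor was not tested.

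The windows before the start sites of Rictor and Mtor are shown because these members had opposite orders of the segments. They are the 250 bases before the annotated start, from RefSeq on GRCm38.p6, which is not the GRCm39 build named in the submitters' processing notes. Rictor lies on the plus strand at chr15:6708131-6708380 and Mtor on the plus strand at chr4:148448332-148448581. Capitals mark matches on either strand to CCAAT (the CCAAT box) and GGGCGG (the GC box).
Rictor: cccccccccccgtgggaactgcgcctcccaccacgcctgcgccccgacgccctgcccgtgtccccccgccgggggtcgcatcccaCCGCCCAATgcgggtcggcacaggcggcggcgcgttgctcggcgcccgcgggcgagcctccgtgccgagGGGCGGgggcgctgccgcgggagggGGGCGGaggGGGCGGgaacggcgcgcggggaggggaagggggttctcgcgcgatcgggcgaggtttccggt
Mtor: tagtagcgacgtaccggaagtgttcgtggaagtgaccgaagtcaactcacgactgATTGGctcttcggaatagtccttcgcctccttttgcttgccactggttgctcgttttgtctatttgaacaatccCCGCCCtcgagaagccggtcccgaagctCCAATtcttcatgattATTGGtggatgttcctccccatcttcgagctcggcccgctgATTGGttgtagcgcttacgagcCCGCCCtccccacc
The Rictor window held 40 CpG and matched CCAAT 1 time and GGGCGG 4 times, and its CCAAT match overlaps a GC box match. The Mtor window held 19 CpG, with 4 CCAAT and 2 GGGCGG matches. Windows of 8 members were found, of which 2 matched CCAAT (Mtor and Rictor) and 4 matched GGGCGG (Mtor, Rictor, Rheb and Akt1). Over 32536 windows of that length, 33.8% held CCAAT and 33% held GGGCGG, and the median CpG number was 6. TATAAA, in 12.3% of windows, and TGACGTCA, in 1.56%, matched no member, and CACGTG, in 6.04%, matched Rheb. A match describes letters only.

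Deptor (ENSMUSG00000022419), the inhibitor bound to mTOR, had the widest span of the 10 members, 2.85 on the log2 scale over the 8 groups. Its sham level was 22.8 ± 3.96 TPM (SD, n = 3) in PT-S1 24 h and 114.8 ± 11.9 TPM (SD, n = 4) in CCD 24 h, and 26.3 ± 3.92 TPM (SD, n = 5) and 98.7 ± 16.6 TPM (SD, n = 4) at 72 h. Every CCD animal, at 69.1 TPM or more, was above every PT-S1 animal, at 30.3 TPM or less. Among sham animals alone, 62.6% of genes had this order at 24 h and 55.9% at 72 h. The Deptor to Mtor ratio of TPM, taken within each library, was 0.711 to 1.303 per sham animal in PT-S1 24 h and 5.53 to 10.2 in CCD 24 h. The segments therefore did not overlap in this ratio. Exons of Gm9920 overlap those of Deptor on the opposite strand in GENCODE M21.

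After UNx, Deptor was low in PT-S1 72 h. Sham animals had 25.8, 28.5, 26.9, 19.9 and 30.3 TPM, and UNx animals 8.70, 10.3, 23.7, 17.9 and 19.5 TPM. UNx animals 1 and 2 stood lowest, and UNx animal 3 was above sham animal 4, so the groups overlapped. The change was -0.76 (SE 0.26, limma adjusted p = 0.237). Both lowest animals carried a library of low correlation, with 2.99 and 4.80 TPM, against 22.6 and 21.1 TPM in the other library of the same animal. Without these libraries the change was -0.31 (adjusted p = 0.232), and the UNx animals had 17.9 to 23.7 TPM. The sham and UNx levels of Deptor in CCD overlapped at both times, and its changes were -0.15 (SE 0.10, adjusted p = 0.528) and -0.16 (SE 0.15, adjusted p = 0.900).

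The ratio of Deptor to Mtor separated the groups in PT-S1 72 h. It was 1.63, 1.53, 1.55, 1.33 and 1.10 in sham animals and 0.736, 0.760, 1.002, 1.05 and 0.828 in UNx animals, all below the sham animals. Without the libraries of low correlation the UNx range was 0.828 to 1.05. A ratio within libraries does not depend on their scaling. Of 16 such comparisons, 4 ratios in 4 tables, 3 had no overlap between sham and UNx animals. Besides this one they were the Tsc2 to Tsc1 ratios of PT-S1 24 h and CCD 24 h. The ratio of PT-S1 24 h overlapped when the libraries of low correlation were left out. How often ratios of other gene pairs separate the groups was not counted. The Deptor to Mtor ratio overlapped in PT-S1 24 h, at 0.711 to 1.303 in sham and 0.782 to 2.08 in UNx animals.

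**Figure D3:**
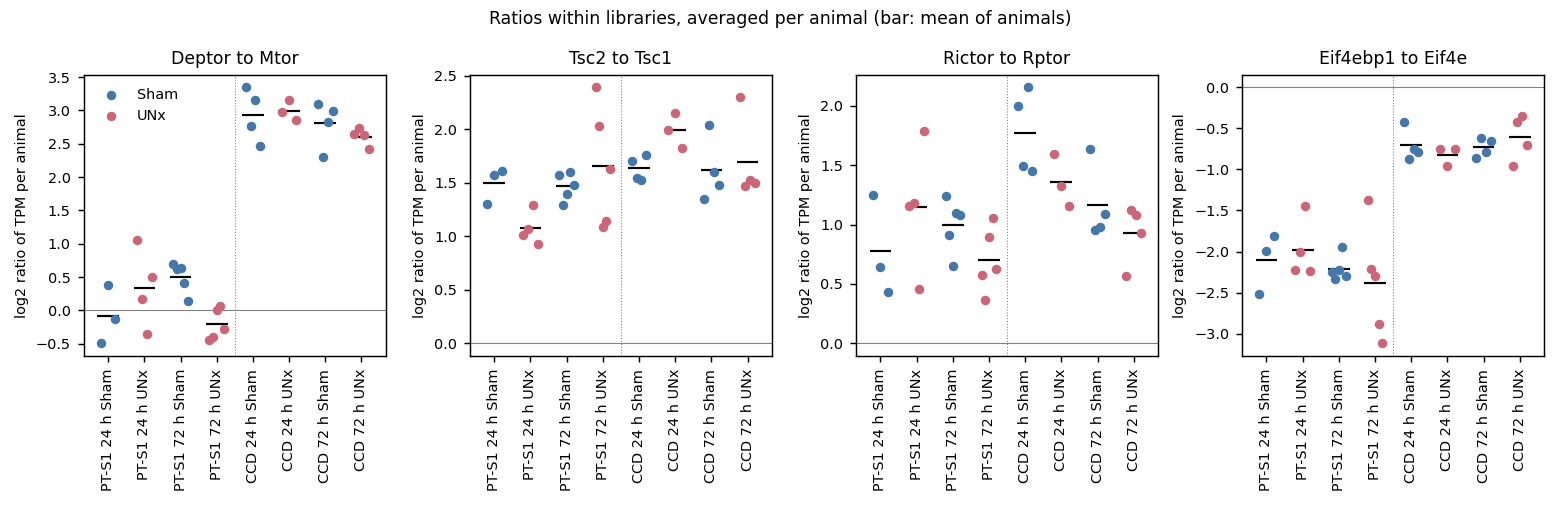
log2 ratio of TPM for 4 pairs of genes, taken within each library and averaged per animal, in the 8 groups, with the mean of the animals as a bar. The Deptor to Mtor ratio is between -0.49 and 1.06 in PT-S1 and between 2.31 and 3.35 in CCD, and UNx lies below sham without overlap in PT-S1 72 h.

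Tsc2 (ENSMUSG00000002496), which carries the GTPase-activating activity of the TSC complex towards Rheb, gave the smallest p of the members in PT-S1 24 h. Sham animals had 39.4, 27.3 and 30.2 TPM and UNx animals 15.7, 20.4, 25.3 and 14.8 TPM. All 4 UNx animals were below all 3 sham animals, as for 12.1% of genes, although single libraries overlapped. The change was -0.75 (SE 0.22, limma adjusted p = 0.254), and -0.55 relative to the median of all genes. A sham library of low correlation held 83.6 TPM. Without the low-correlation libraries the sham animals had 26.9 to 31.7 TPM, still above the UNx animals (a pattern of 21.5% of genes without them), and the change was -0.59 (adjusted p = 0.125). Weighting the animals with arrayWeights gave -0.56 (limma adjusted p = 0.0449), and with these weights 12.0% of all genes passed.

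For PT-S1 72 h, Tsc2 was 27.9, 31.8, 38.2, 30.6 and 27.6 TPM in sham and 21.9, 22.6, 26.3, 18.2 and 26.2 TPM in UNx animals, which did not overlap (5.33% of genes). Without the libraries of low correlation UNx animals 1 and 2 were at 39.2 and 29.8 TPM, the groups overlapped and the change went from -0.42 (adjusted p = 0.237) to -0.19 (adjusted p = 0.595). In CCD at 24 h Tsc2 was 47.5 ± 4.73 TPM in sham (SD, n = 4) and 47.2 ± 6.23 TPM after UNx (SD, n = 3). The UNx effect in PT-S1 24 h minus that in CCD 24 h was -0.73 (95% interval -1.27 to -0.19, limma adjusted p = 0.226; -0.58 and 0.171 without the libraries of low correlation), a comparison in which 0.137% of genes passed the adjusted threshold and 15.4% had an unadjusted p under 0.05. Exons of Pkd1 overlap those of Tsc2 on the opposite strand in GENCODE M21.

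Tsc1 (ENSMUSG00000026812), the partner that stabilises Tsc2, was low after UNx in CCD 24 h. The sham animals had 14.7, 15.8, 14.8 and 15.9 TPM and the UNx animals 10.2, 11.9 and 13.5 TPM, with no overlap. Of the libraries, sham animal 1 gave 19.4 and 11.02 TPM, so single libraries overlapped. The change was -0.35 (SE 0.11, limma adjusted p = 0.194). The Tsc2 change there was -0.01, and the Tsc2 to Tsc1 ratio was 2.87 to 3.38 in sham and 3.55 to 4.45 in UNx animals of CCD 24 h. The order was the reverse in PT-S1 24 h, at 2.47 to 3.06 in sham and 1.90 to 2.45 in UNx animals. Without the low-correlation libraries that sham range was 2.38 to 2.98, which overlaps the UNx range. In CCD 72 h the Tsc1 ranges overlapped, at 12.0 to 21.2 TPM in sham and 10.5 to 19.9 TPM in UNx animals.

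Rheb (ENSMUSG00000028945), the GTPase that switches on mTORC1, was at 47.0 ± 3.51 TPM (SD, n = 3) in sham PT-S1 and 155.2 ± 13.2 TPM (SD, n = 4) in sham CCD at 24 h. Every CCD animal, at 109.9 TPM or more, was above every PT-S1 animal, at 66.4 TPM or less. For sham animals alone this order held for 62.6% of genes at 24 h and 55.9% at 72 h. The sham and UNx groups overlapped for Rheb in all 4 tables. In PT-S1 24 h the UNx change of Rheb was 0.18 (SE 0.16, adjusted p = 0.530), and elsewhere it was between -0.27 and -0.11. Without the low-correlation libraries the change in PT-S1 24 h was -0.002.

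Akt1 (ENSMUSG00000001729), the kinase above the TSC complex, varied more between libraries of 1 animal than any other member in PT-S1 72 h and CCD 24 h. That SD was 1.02 and 0.66 on the log2 scale. Sham animals of CCD had 87.5, 46.9, 124.8 and 89.1 TPM at 24 h and 107.3, 171.0, 139.9 and 157.5 TPM at 72 h. The ranges at 24 h and 72 h overlapped only through animal 1 at 72 h, which includes a library of low correlation at 65.9 TPM. Without that library the 72 h range was 139.9 to 174.4 TPM, above the 24 h range. Sham animals of PT-S1 72 h had 36.3, 46.1, 54.4, 42.7 and 49.97 TPM and the UNx animals 12.3, 13.8, 44.8, 48.9 and 51.9 TPM. Only UNx animals 1 and 2 were low, and their libraries of low correlation held 2.38 and 3.5 TPM against 51.6 and 47.4 TPM in the other library of each. The change was -0.64 (SE 0.39, adjusted p = 0.310), and 0.10 (adjusted p = 0.662) without those libraries. UNx animal 2 of PT-S1 24 h was lowest at 10.1 TPM, with 33.6 to 51.8 TPM in the other UNx and 42.6 to 55.4 TPM in the sham animals, and the change was -0.75 (SE 0.44, adjusted p = 0.357). Sham animal 3, at 42.6 TPM, includes a library of low correlation at 18.3 TPM. Without such libraries the sham animals had 53.1 to 64.6 TPM, above all UNx animals, and the change was -0.94 (adjusted p = 0.230).

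**Figure D4:**
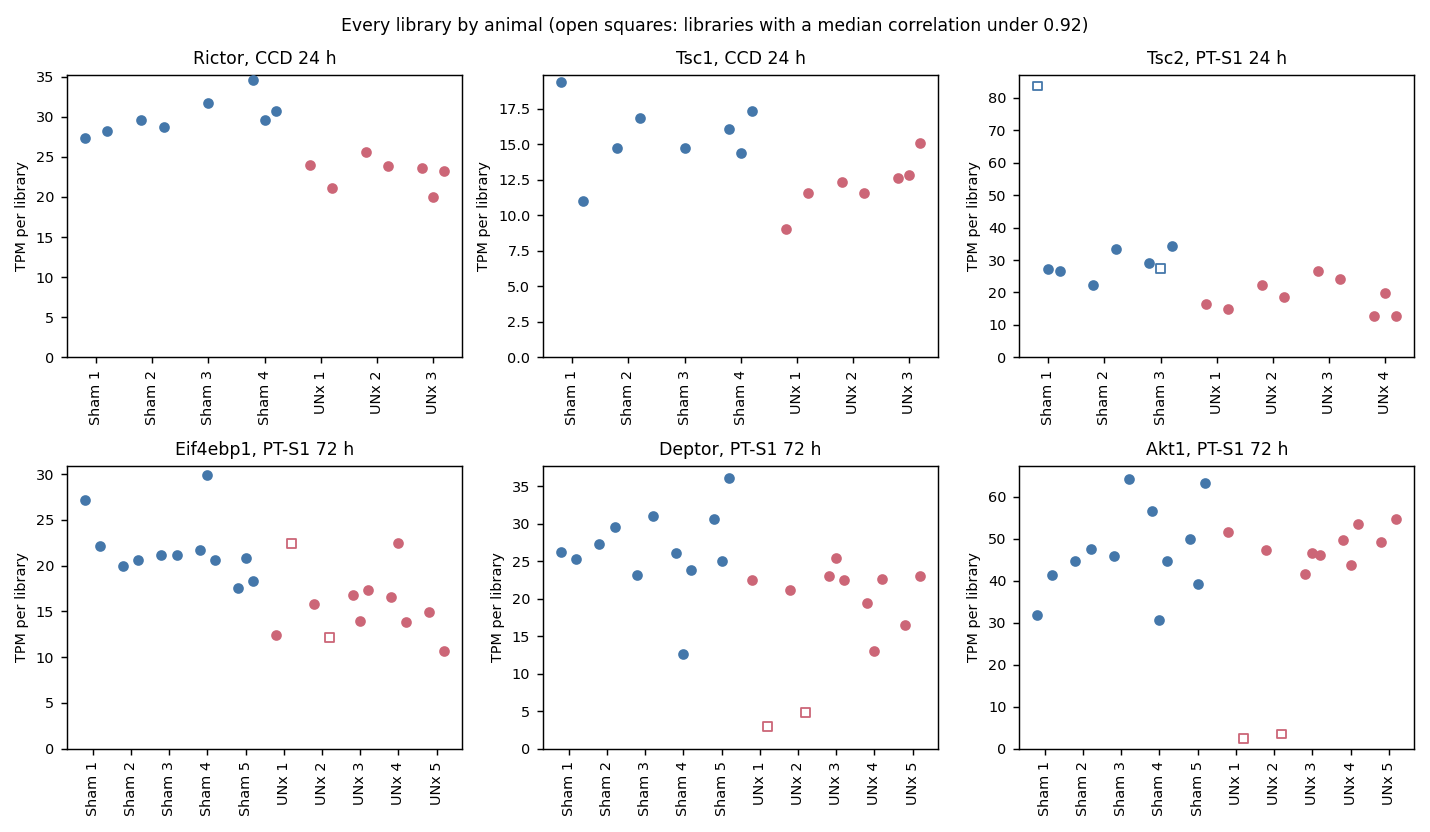
TPM in every library, by animal, for Rictor and Tsc1 in CCD 24 h, Tsc2 in PT-S1 24 h and Eif4ebp1, Deptor and Akt1 in PT-S1 72 h, with sham in blue, UNx in red and libraries of low correlation as open squares. For Rictor no UNx library reaches the sham libraries, while the lowest Deptor and Akt1 values are the open squares of UNx animals 1 and 2.

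Eif4ebp1 (ENSMUSG00000031490), the repressor of cap-dependent translation that mTORC1 inactivates, had 21.4 ± 5.48 TPM (SD, n = 3) in sham PT-S1 and 84.4 ± 7.31 TPM (SD, n = 4) in sham CCD at 24 h. Sham animals of PT-S1 72 h had 24.5, 20.2, 21.2, 23.8 and 18.9 TPM and the UNx animals 16.7, 13.9, 15.98, 17.3 and 12.7 TPM. All 5 UNx animals were below all 5 sham animals. The change was -0.48 (SE 0.16, limma adjusted p = 0.237). Without the libraries of low correlation Eif4ebp1 was the only member of which the groups did not overlap in this table (1.62% of genes), with 12.4 to 17.3 TPM in UNx animals and a change of -0.53 (adjusted p = 0.191). It passed with arrayWeights (-0.65, limma adjusted p = 0.00929), as did 11.3% of all genes. With quantile normalization the change was -0.19 and with median-ratio scaling -0.10, and the groups overlapped under both.

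At 24 h Eif4ebp1 in PT-S1 was 17.0, 27.6 and 19.7 TPM in sham and 19.4, 25.6, 35.7 and 26.5 TPM in UNx animals, with a change of 0.31 (SE 0.23, adjusted p = 0.463). When the libraries of low correlation were left out, sham animals 1 and 3 were at 25.6 and 16.4 TPM, and the change was 0.20 (adjusted p = 0.593). The effect at 72 h minus that at 24 h was -0.79 (95% interval -1.36 to -0.22, limma adjusted p = 0.998), and -0.73 (adjusted p = 0.110) without these libraries. Of all genes, 3.33% had an unadjusted p under 0.05 in that comparison, and of the members Eif4ebp1 and Deptor, whose difference was -0.82 (95% interval -1.58 to -0.062) and -0.14 without the libraries of low correlation. Between segments at 72 h, the effect in PT-S1 minus that in CCD was -0.55 for Eif4ebp1 (95% interval -0.97 to -0.13, limma adjusted p = 0.495; 9.33% of genes at an unadjusted p under 0.05). It was -0.15 with median-ratio scaling and -0.69 (adjusted p = 0.144) without the libraries of low correlation. In CCD the change of Eif4ebp1 was -0.091 (SE 0.086, adjusted p = 0.657) at 24 h and 0.064 (SE 0.13, adjusted p = 0.964) at 72 h.

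Rps6kb1 (ENSMUSG00000020516) encodes S6 kinase 1. The sham animals of PT-S1 24 h had 16.4, 13.4 and 15.7 TPM and the UNx animals 10.3, 10.9, 12.3 and 13.2 TPM, with no overlap, and a change of -0.35 (SE 0.17, adjusted p = 0.296). At 72 h they had 16.7, 12.23, 14.2, 12.8 and 12.7 TPM and 8.79, 8.02, 11.8, 10.1 and 12.21 TPM. The nearest animals of the groups were almost level, without overlap, and the change was -0.40 (SE 0.17, adjusted p = 0.237). Relative to the median of all genes both changes were small, -0.16 and -0.12. In both tables the groups overlapped after quantile or median-ratio scaling, and when the low-correlation libraries were left out. In CCD the changes were -0.18 at 24 h and -0.23 at 72 h, with overlapping groups. Exons of Rnft1 overlap those of Rps6kb1 on the opposite strand in GENCODE M21.

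Not one of 71 other genes of the pathway, in 4 lists, passed the limma threshold in any table. In PT-S1 24 h, 14 of 68 tested were lower and 1 higher at an unadjusted p under 0.05, beside 15.2% and 2.59% of all genes. In PT-S1 72 h, 15 of 68 were lower and 0 higher (19.1% and 1.33% of all genes). In CCD 24 h, 9 of 70 were lower and 4 higher (9.97% and 5.55%), and in CCD 72 h 0 were lower and 3 higher (2.82% and 4.66%). The median change of the pathway genes tested was -0.31, -0.40, -0.020 and -0.011 in this order of tables.

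In CCD 24 h the 8 complex subunits and assembly factors had a median change of 0.24 against -0.038 for all genes, and 7 of them were above 0. This list was singled out after its values were seen, and 58.2% of all genes were lower there. Of its 8 genes, 0 were above 0 in PT-S1 24 h, 0 in PT-S1 72 h and 5 in CCD 72 h. At an unadjusted p under 0.05 in CCD 24 h were Telo2 (0.46), Mlst8 (0.26) and Akt1s1 (0.37), beside 5.55% of all genes higher at that p. The smallest limma adjusted p of the list was 0.195. Mlst8 is a subunit of both complexes and Akt1s1 encodes the mTORC1 inhibitor PRAS40. The 4 pathway genes with the smallest p in CCD 24 h were Pdpk1, Rraga, Prkaa2 and Pdcd4. Pdpk1, the kinase that activates Akt and S6 kinase, was at 49.3 ± 3.49 TPM in sham (SD, n = 4) and at 34.8 ± 5.73 TPM after UNx (SD, n = 3). Its change was -0.50 (SE 0.12, limma adjusted p = 0.0873). Rraga, a Rag GTPase that brings mTORC1 to the lysosome, had a change of -0.46 (adjusted p = 0.0913), and Prkaa2, a catalytic subunit of the energy sensor AMPK, one of -0.44 (adjusted p = 0.0925). Pdcd4, a translation inhibitor that S6 kinase marks for degradation, was at 61.9 ± 6.04 TPM in sham (SD, n = 4) and at 80.6 ± 6.70 TPM after UNx (SD, n = 3). Its change was 0.38 (SE 0.099, adjusted p = 0.115). For these 4 genes, chosen by their p, the sham and UNx animals did not overlap, as for 9.51% of all genes with UNx lower and 5.55% with UNx higher. All 4 passed limma's threshold when libraries replaced animals as replicates, as did 7.46% of all genes.

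By the same ranking, PT-S1 24 h gave Rragd, Eif4b, Tfeb and Castor2, all with values below 0. Rragd, another Rag GTPase, was at 27.0 ± 6.42 TPM in sham (SD, n = 3) and at 13.3 ± 2.94 TPM after UNx (SD, n = 4). Its change was -0.97 (SE 0.22, limma adjusted p = 0.228). Tfeb, the lysosomal transcription factor that mTORC1 keeps out of the nucleus, averaged 23.4 ± 0.801 and 15.3 ± 2.24 TPM, a change of -0.59 (adjusted p = 0.254). Eif4b, a cofactor of translation initiation, had a change of -0.80 and Castor2, of the arginine sensor family, one of -0.95. The changes of Rragd, Tfeb, Eif4b and Castor2 without the libraries of low correlation were -0.75, -0.68, -0.64 and -0.67 (limma adjusted p = 0.0793 to 0.141). The genes named by the same rule in PT-S1 72 h were Pdpk1, Rragd, Pik3ca and Prr5l, with changes of -0.65, -0.59, -0.75 and -0.70. Without the libraries of low correlation these became -0.31, -0.19, -0.24 and -0.26. In CCD 72 h 3 genes had an unadjusted p under 0.05, Rps6 (0.34), Lamtor4 (0.31) and Lamtor1 (0.23), and for each the UNx animals lay above the sham animals without overlap (3.23% of genes). Rps6 is the ribosomal protein phosphorylated by S6 kinase, and Lamtor1 and Lamtor4 are subunits of the Ragulator that anchors Rag GTPases on the lysosome.

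**Figure D5:**
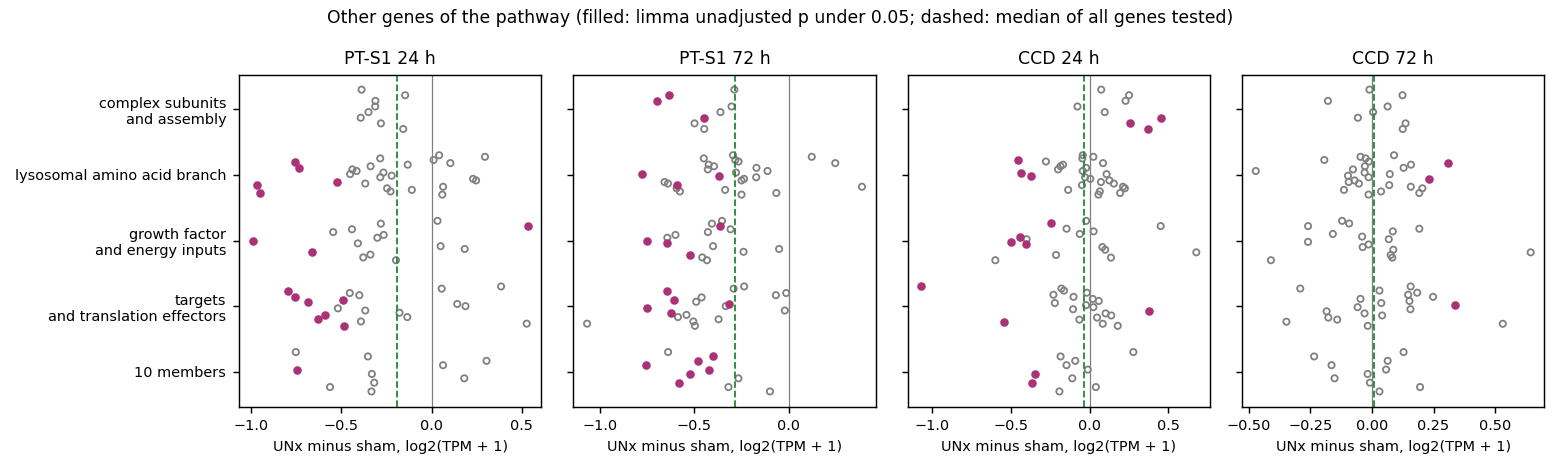
UNx minus sham change on the log2(TPM + 1) scale for the other genes of the pathway in 4 lists and for the 10 members, in each table, with filled points at an unadjusted limma p under 0.05 and the median of all genes as a dashed line. In CCD 24 h the filled points of the complex subunits lie above 0 and those of the members below it, and none of the points passes the adjusted threshold.

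The genes most alike to the members were taken from 9367 genes by Pearson correlation of log2(TPM + 1) over the 32 animals, counted separately in each table. These averages fall into the 2 segments, so the correlations mainly describe the order of the segments. Mbnl2, Arpc1a and Prkab1 were nearest to Deptor (0.987, 0.985 and 0.984). Birc2, Cab39 and Mdm2 were nearest to Rictor (0.983, 0.983 and 0.982), and Pafah1b3, Ephx1 and Myl12b to Eif4ebp1 (0.979, 0.977 and 0.976). Chmp5, Pdcl3 and Fopnl were nearest to Rheb (0.988, 0.987 and 0.986) and Dmwd, Rcc2 and Cask to Akt1 (0.981, 0.972 and 0.968). Tsc1 had the weakest nearest genes, Dync2h1, Baz1b and Gbf1 (0.904, 0.898 and 0.894). Mtor spanned less than 1 on the log2 scale over the groups and was given no such list.

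The spread between libraries of 1 animal limited the precision of the members. On the log2 scale, with all libraries, it exceeded the spread between animal means of a group for 8 of 10 members in PT-S1 24 h. This was so for 10 in PT-S1 72 h, 6 in CCD 24 h and 8 in CCD 72 h. Averaging an animal's libraries narrows the spread of the means, so these spreads are not like for like. The spread between libraries was smallest in CCD 24 h for Eif4ebp1 (SD 0.086), Rheb and Rictor, and largest for Akt1 in PT-S1 72 h. With the libraries of low correlation included, UNx animals 1 and 2 were the lowest of PT-S1 72 h for 8 of the 10 members, the exceptions being Tsc2 and Eif4ebp1. In that table markers of principal cells were higher and those of intercalated cells lower in all UNx than in all sham animals, at sums of 95.6 to 108.4 against 69.8 to 78.8 TPM and of 1.84 to 2.81 against 3.09 to 17.9 TPM. Only 2 of the 7 principal cell markers averaged at least 1 TPM there, and 1 of the 6 intercalated ones in UNx animals, with no marker of either list at 0. In PT-S1 24 h the markers of macrophages and leukocytes summed to 72.7 to 127.1 TPM in UNx and 141.4 to 192.7 TPM in sham animals. Their part in the levels of the members was not tested.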

How the data were processed

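Per the submitters' processing notes, reads were handled with STAR and RSEM 1.3.3 on GRCm39. The annotation release is not given in the sources used here. The authors deposited 4 tables of TPM values per gene and library, 1 for each segment and time. TPM keeps no depth, so the depth is unknown. Per the labels, RNA was polyA RNA, and cDNA was made with a SMART-Seq V4 kit.

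All 69 columns were used. For 51 the column name, or its being the only column of an animal, gave a single sample, and 18 gave the group and the animal only. The number after Sham or UNx was read as the animal. No columns of a table were identical (0 in each). Nothing in the labels says more of how the animals were kept apart. The p-values rest on the spread between the means of these animals, which includes spread between their libraries.

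The filter kept genes averaging at least 1 TPM across a table's animals. Tests ran on log2(TPM + 1), a scale on which changes of low genes are understated, with limma 3.58.1 in R 4.3.3 (empirical Bayes with a trend, two-sided, Benjamini-Hochberg over all genes, threshold 0.05). Tables were tested separately. Between tables only the difference of UNx effects was tested, in a model of the 4 groups. That model took all animals as independent. Between PT-S1 and CCD of the same time, animals of the same number may be the same mice, which was not modelled. A trial of limma used simulated data with 200 genes changed by 2 on the log2 scale. It recovered 89.5% for the 24 h table of PT-S1 (11874 genes) and 96.5% for its 72 h table (11886 genes). For CCD it recovered 98% at 24 h (13775 genes) and 93.5% at 72 h (13770 genes). The member changes with all libraries were smaller, the largest being -0.76 for Deptor in PT-S1 72 h. Changes of that size were not simulated, so these percentages do not say what could be detected for the members.

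The members, the pathway lists, the marker lists and the alternatives were chosen with earlier results of these data known. All members are described. Other pathway genes were named if they passed the threshold in a table, or otherwise were the up to 4 with the smallest unadjusted p under 0.05, and subunits in CCD 24 h at that p were named after their values were seen. The 3 genes most alike were sought for members spanning at least 1 over the groups. Alternatives covered the pseudocount (0.1), the filter (a mean of at least 5, or TPM above 0 in at least 3 animals), quantile and median-ratio scaling, mitochondrially encoded genes left out, libraries as replicates, averaging before the log, arrayWeights, libraries of low correlation left out, a replicate block and each animal left out. Leaving out the low-correlation libraries in the count of members between segments was added after seeing the data. Promoter windows came from RefSeq on GRCm38.p6, and exon overlaps from GENCODE M21.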

Additional observations from a re-analysis of the deposited data

Results flagged for a closer look

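Member levels were examined for single animals far from the rest in 60 groups of 4 or 5 animals, where about 1 in 20 is marked by chance, and 2 were marked. Rps6kb1 in sham animal 4 of CCD 24 h was at 22.8 TPM, while the other 3 sham animals lay between 25.9 and 26.5 TPM. Deptor in UNx animal 4 of CCD 72 h was at 69.1 TPM, with the other 3 UNx animals between 92.0 and 95.3 TPM. No difference of UNx effects between times or segments passed the adjusted threshold for a member.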

How the results depend on the processing

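TPM carries no read depth, and 3 to 5 animals per group limit what can be detected. Of 59 changes of single genes, 43 kept their sign in every alternative. Among them were the pathway genes named by the smallest p in each table. Telo2, Mlst8 and Akt1s1 were not put through the alternatives. No member passed the adjusted threshold with the animal as replicate, except 1 in PT-S1 24 h (Tsc2) and 1 in PT-S1 72 h (Eif4ebp1) under arrayWeights. The same weights called 1 member in the difference of PT-S1 and CCD effects at 24 h (Akt1) and 1 at 72 h (Eif4ebp1). The share of all genes called in those differences is not given here, so these 2 calls cannot be set against it. Within PT-S1 the weights called 12.0% of all genes at 24 h and 11.3% at 72 h. With libraries as replicates, or the animal as a random effect, 1 member (Rictor) passed in CCD 24 h, as did 7.46% and 3.52% of all genes. The causes were not tested.

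Of the other pathway genes, 1 passed in PT-S1 24 h with libraries as replicates, 1 with the random effect and 12 with arrayWeights. In PT-S1 72 h arrayWeights called 4. In CCD 24 h libraries as replicates called 8 and the random effect 3, and leaving out single animals called 0 to 1 in CCD 72 h.

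Over all genes, PT-S1 24 h gave 0 calls, and 2 with no filter on the mean, 1 with quantile normalization, 1 with median-ratio scaling, 85 with libraries as replicates, 100 with the random effect, 1426 with arrayWeights and 1 without low-correlation libraries. PT-S1 72 h gave 0, and 18 with libraries as replicates, 10 with the random effect, 1346 with arrayWeights and 1 without low-correlation libraries. CCD 24 h gave 136, and 1 with no filter, 1027 with libraries as replicates and 485 with the random effect. CCD 72 h gave 82, and 7 with no filter, 39 with a mean of at least 5 TPM, 150 with libraries as replicates and 129 without the low-correlation library. Leaving out each animal gave 0 to 8 calls in PT-S1 24 h, 7 to 78 in CCD 24 h and 8 to 73 in CCD 72 h.

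Same-numbered sham and UNx animals were correlated between -0.37 and 0.33 in their deviations, and not every animal was nearest to its own number. With so few animals per table, this cannot show whether the numbers pair them. The main test did not pair them. With the animal number as a replicate block, 0 members passed, and over all genes 80 were called in PT-S1 24 h, 0 in PT-S1 72 h, 0 in CCD 24 h and 3 in CCD 72 h. The block gave Tsc2 in CCD 24 h a change of 0.048.

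Several changes turned sign, among them Akt1 in PT-S1 72 h, whose change was -0.64. In PT-S1 24 h, Rheb was -0.0022 without low-correlation libraries. Deptor there was -0.0092 with averaging before the log, -0.18 with arrayWeights and -0.16 without low-correlation libraries, and Eif4ebp1 was -0.033 with arrayWeights. In PT-S1 72 h, Mtor was 0.24 with quantile normalization, 0.26 with median-ratio scaling, 0.31 with arrayWeights and 0.25 without low-correlation libraries. Rptor was 0.017 without them, Rheb 0.115 with median-ratio scaling, and Akt1 0.17 with arrayWeights and 0.10 without low-correlation libraries. In CCD 24 h, Rptor was -0.021 with libraries as replicates and -0.0045 with the random effect, and Tsc2 was 0.020 with quantile normalization, 0.041 with median-ratio scaling, 0.0034 with averaging before the log and 0.013 with arrayWeights. In CCD 72 h, arrayWeights gave Mtor -0.014, Rptor -0.011 and Tsc2 -0.11. Without the low-correlation library Mtor was -0.010, Tsc2 -0.15 and Akt1 -0.045. Leaving out each animal in CCD 24 h gave Rptor -0.060 to 0.16 and Tsc2 -0.099 to 0.089. In CCD 72 h it gave Akt1 -0.0047 to 0.22, Eif4ebp1 -0.020 to 0.15, Mtor -0.045 to 0.073, Rictor -0.093 to 0.079, Rptor -0.016 to 0.30, Tsc1 -0.15 to 0.17 and Tsc2 -0.17 to 0.16. It gave Deptor -0.038 to 0.19 in PT-S1 24 h and Mtor -0.21 to 0.038 in PT-S1 72 h.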
